A study of Homo sapiens with 6 samples.

Results

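The plasminogen activator system was followed in HuCCT1 cells through 5 of the 20811 genes measured, chosen by their symbols: PLAU, PLAT, PLAUR, SERPINE2 and SERPINB2. HuCCT1 was derived from a human intrahepatic cholangiocarcinoma. The HuCCT1/CD90+ cells were transduced with human THY1-CMV-GFP lentivirus, THY1 being the gene of the surface glycoprotein CD90, and HuCCT1/CD90- cells with the Lenti-CMV-GFP-2A-Puro-Blank lentivirus. Both lines were thus virus-treated cells of 1 parental line grown in RPMI with serum, and 3 libraries of each were sequenced. Only 1 line of each kind was studied, so that the transgene cannot be told apart from other differences that arose between the lines.

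Plasminogen is cleaved to plasmin, a broad-acting serine protease, by the urokinase-type activator (uPA, gene PLAU) and the tissue-type activator (tPA, PLAT). The urokinase receptor (uPAR, PLAUR) holds uPA on the cell surface, which places proteolysis there, and uPA is made as an inactive pro-enzyme that other proteases cleave. Inhibitors of the serpin family trap the active enzymes, among them protease nexin-1 (SERPINE2), which also inhibits thrombin, and plasminogen activator inhibitor type 2 (SERPINB2). The system is known for its part in clot lysis, matrix turnover and tumour cell invasion.

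Of the 5 genes, SERPINE2 was lower and SERPINB2 higher in HuCCT1/CD90+ cells, and PLAU, PLAT and PLAUR did not pass the test. SERPINE2 dropped from 98.9 to 0.950 RPM, the reads of a gene scaled to a common library total, while SERPINB2 rose from 2.88 to 10.6 RPM, a call that was lost with a replicate block (adjusted p = 0.129 from limma) and without any 1 library other than HuCCT1/CD90+ replicate 2 (adjusted p of 0.0713 to 0.107). A gene was called where limma, on log2(RPM + 1), tested over the whole table, gave an adjusted p (Benjamini-Hochberg) no higher than 0.05 together with a fold change of at least 1.5. By this rule 2 of the 5 genes were called, 1 in each direction, beside 15.1% of all genes, where 7.59% of all genes were higher and 7.49% lower. All 5 genes had more than 3 reads in at least 1 library, as had 14098 of all genes, 3138 of them called. With the block 1 of the 5 was called, beside 10.1% of all genes. With single libraries left out, 3 were called without HuCCT1/CD90- replicate 1 (SERPINE2, PLAU and PLAT), 2 without HuCCT1/CD90+ replicate 2 and 1 in each of the other 4 fits. The values of the lines did not overlap for 3 of the 5 genes (PLAU, SERPINE2 and SERPINB2), beside 35.0% of all genes (17.3% higher and 17.7% lower). With edgeR after filterByExpr and with DESeq2, both run on reads, the same 2 of the 5 genes passed both thresholds. Beside them stood 34.8% of the genes edgeR kept and 24.9% of the genes with any read in DESeq2. The latter include genes of few reads to which DESeq2 gave no adjusted p, so the 2 shares are not alike. The 5 genes had a median log2 fold change of 0.48, and all genes tested one of 0. Each gene is read from 1 amplicon, and how well an amplicon is copied differs between genes, so that levels were compared between lines and not between genes.

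The libraries held 8587634 to 10551516 reads on genes, and 3 reads, taken as the floor, corresponded to 0.284 to 0.349 RPM. THY1 was read first as a check of the labels. HuCCT1/CD90- replicates 1, 2 and 3 gave 0, 1 and 0 reads of it, and HuCCT1/CD90+ replicates 1, 2 and 3 gave 435, 445 and 680. The mean of HuCCT1/CD90+, 57.4 ± 14.4 RPM (SD, n = 3), was at least 178.9-fold above the highest floor in HuCCT1/CD90- (log2 fold change 5.79, SE 0.19, adjusted p = 0.00045 from limma). All 7 biliary epithelial markers, among them KRT7 and KRT19, were above the floor in both lines, with levels that summed to between 8210 and 9314 RPM in HuCCT1/CD90- and between 10970 and 11720 RPM in HuCCT1/CD90+. The 7 fibroblast markers summed to 41.8 to 65.3 RPM in HuCCT1/CD90-, with 7 above the floor, and to 20.4 to 24.7 RPM in HuCCT1/CD90+, with 3 above it. The 5 endothelial markers summed to 14.9 to 23.4 and 1.29 to 1.86 RPM, the 5 leukocyte markers to 119.9 to 144 and 88.1 to 104.7 RPM (CD14 was lower, at 80.8 and 4.32 RPM, and CD68 higher, at 50.8 and 92.2 RPM, both called), and the 5 hepatocyte markers to 1.84 to 4.28 and 0 to 0.465 RPM with TTR at 0. The part of these marker differences in the results on the plasminogen activator system was not tested. In RNA of whole cultures, fewer cells of a type and less RNA per cell cannot be told apart.

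The promoter sequences of the called genes SERPINE2 and SERPINB2 are shown because these members moved in opposite directions. They are the 250 bases before the start of the RefSeq transcripts of GRCh38.p14, on the strand of the gene, with capitals marking motif matches. The motifs searched on both strands were AP-1 (TGANTCA), PEA3 (AGGAAG), the TATA box (TATAAA), the CCAAT box (CCAAT) and the GC box (GGGCGG). The SERPINE2 windows lie at chr2:224038641-224038890 and chr2:224031479-224031728 on the minus strand, and the SERPINB2 window at chr18:63887455-63887704 on the plus strand.
SERPINE2, first start: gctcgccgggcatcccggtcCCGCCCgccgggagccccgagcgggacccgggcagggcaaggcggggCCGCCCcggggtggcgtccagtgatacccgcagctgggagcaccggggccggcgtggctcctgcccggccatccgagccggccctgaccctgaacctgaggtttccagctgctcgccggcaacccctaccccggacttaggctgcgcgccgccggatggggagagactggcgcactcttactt
SERPINE2, second start: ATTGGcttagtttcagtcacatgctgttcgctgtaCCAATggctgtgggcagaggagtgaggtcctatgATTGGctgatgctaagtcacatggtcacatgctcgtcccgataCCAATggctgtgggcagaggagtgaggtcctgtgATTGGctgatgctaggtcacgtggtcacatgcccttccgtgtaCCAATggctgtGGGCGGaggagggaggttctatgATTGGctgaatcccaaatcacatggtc
SERPINB2: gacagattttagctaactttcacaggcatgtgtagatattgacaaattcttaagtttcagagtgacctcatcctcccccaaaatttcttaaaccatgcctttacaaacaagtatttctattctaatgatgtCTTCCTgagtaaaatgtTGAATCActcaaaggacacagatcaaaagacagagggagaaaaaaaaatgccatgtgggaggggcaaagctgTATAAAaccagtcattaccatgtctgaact
The SERPINE2 windows held 75.2% and 53.2% G and C, with 2 GC box matches in the one and 7 CCAAT box matches and 1 GC box match in the other. The SERPINB2 window held 37.2% G and C. An AP-1 match, TGAATCA, began 102 bases before its start, a PEA3 match 119 bases before and a TATA box match 30 bases before. Neither AP-1 nor TATA box letters were in the SERPINE2 windows. Of 35114 RefSeq windows of this length, several of them for some genes, 6.57% held the AP-1 motif, 28.7% PEA3, 10.7% the TATA box, 32% the CCAAT box and 42.6% the GC box. The window of PLAUR held an AP-1 match, TGAGTCA, 186 bases before the start, and the PLAU windows held none. A match is a run of letters and not a known site.

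SERPINE2 (ENSG00000135919), which encodes protease nexin-1, lies on the minus strand at chr2:223975112-224039319 of GRCh38 in GENCODE 29. Its level was 80.5, 104.1 and 112.1 RPM in HuCCT1/CD90- replicates 1, 2 and 3, and 0.965, 0.582 and 1.30 RPM in HuCCT1/CD90+ replicates 1, 2 and 3. The lowest HuCCT1/CD90- library was far above the highest HuCCT1/CD90+ library, and the lines did not overlap. The mean was 98.9 ± 16.5 RPM (SD, n = 3) in HuCCT1/CD90- and 0.950 ± 0.360 RPM (SD, n = 3) in HuCCT1/CD90+, 104.1-fold lower. The HuCCT1/CD90+ values rest on 9, 5 and 12 reads, so the gene was still detected there above the floor. On the log2(RPM + 1) scale SERPINE2 fell by 5.68 (SE 0.20, 95% interval -6.22 to -5.14, adjusted p = 0.00052 from limma), the change ranked 19 among all falls. Of the 50 nearest genes with at least 10 RPM on the same chromosome, up to 7.69 megabases away, 5 were called higher and 3 lower, with a median log2 fold change of 0.08, beside 11.4% higher and 10.6% lower of all located genes at that level.

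SERPINB2 (ENSG00000197632), the gene of the type 2 inhibitor, lies at chr18:63871692-63903890 on the plus strand. It was read at 2.18, 3.64 and 2.81 RPM in HuCCT1/CD90- replicates 1, 2 and 3, and at 11.3, 6.75 and 13.7 RPM in HuCCT1/CD90+. HuCCT1/CD90+ replicate 2 was the lowest of its line and still above every HuCCT1/CD90- library. The means were 2.88 ± 0.731 and 10.6 ± 3.51 RPM (SD, n = 3 each), 3.67-fold higher in HuCCT1/CD90+, from 23 to 34 and 58 to 126 reads. The log2 fold change was 1.54 (SE 0.30, 95% interval 0.74 to 2.34, adjusted p = 0.033 from limma). With an offset of 5 in place of 1 RPM it was 0.96 (adjusted p = 0.041). In a fit with a replicate block the adjusted p was 0.129. The call was also lost without HuCCT1/CD90- replicate 1, 2 or 3 or HuCCT1/CD90+ replicate 1 or 3 (adjusted p of 0.0713 to 0.107), and kept without HuCCT1/CD90+ replicate 2 (log2 fold change 1.81, adjusted p = 0.0264). On the recovered reads, edgeR after filterByExpr gave an adjusted p of 3.6e-05 and DESeq2 one of 3.5e-07. Among the 50 nearest genes with at least 10 RPM on chromosome 18, which lay up to 27.9 megabases away, 3 were called higher and 2 lower. Of all located genes at that level, 11.4% were called higher and 10.6% lower.

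**Figure D1:**
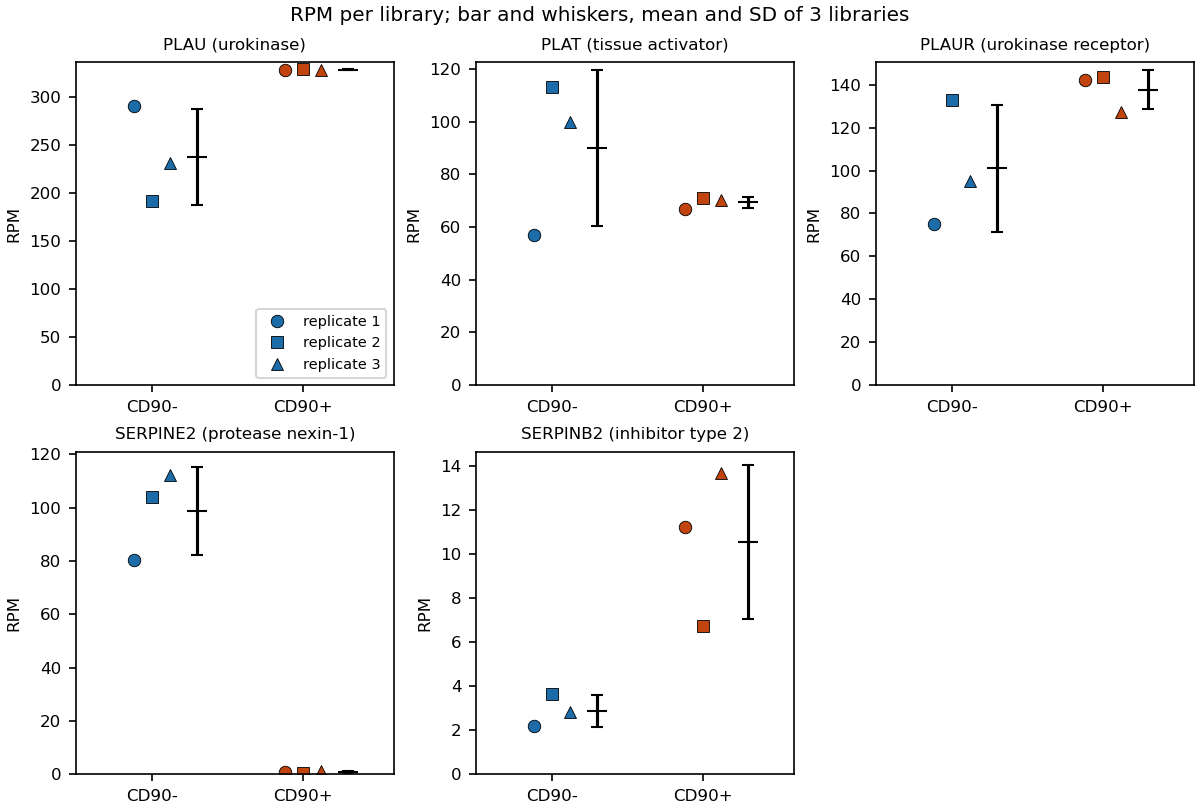
RPM in each library (vertical axis, from 0, a scale of its own per gene) for the 5 genes, with HuCCT1/CD90- in blue, HuCCT1/CD90+ in red, symbols for replicates 1 to 3 and a bar with whiskers for the mean and SD of 3 libraries. SERPINE2 is near 0 in HuCCT1/CD90+, and the HuCCT1/CD90- libraries spread more widely than the HuCCT1/CD90+ libraries for PLAU, PLAT and PLAUR.

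PLAU (ENSG00000122861), the gene of uPA, lies at chr10:73909177-73917497 on the plus strand. Its level was 290.9, 191.3 and 231.6 RPM in HuCCT1/CD90- replicates 1, 2 and 3, and 327.6, 329.1 and 328.5 RPM in HuCCT1/CD90+. The HuCCT1/CD90+ libraries were nearly alike and all above the highest HuCCT1/CD90- library. The means were 237.9 ± 50.1 and 328.4 ± 0.728 RPM (SD, n = 3 each), and the log2 fold change of 0.48 (SE 0.17, 95% interval 0.04 to 0.92) had an adjusted p of 0.130 from limma. The coefficient of variation was 21.0% in HuCCT1/CD90- and 0.222% in HuCCT1/CD90+, where counting alone would give 1.84%. Without HuCCT1/CD90- replicate 1 the log2 fold change was 0.64 and the adjusted p 0.0374, past both thresholds. In edgeR after filterByExpr the adjusted p was 0.0228 and in DESeq2 0.0176, both with a fold under 1.5.

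PLAT (ENSG00000104368), the gene of tPA, lies on the minus strand at chr8:42175233-42207724. It was read at 56.9, 113.3 and 99.7 RPM in HuCCT1/CD90- replicates 1, 2 and 3, and at 66.9, 71.0 and 70.1 RPM in HuCCT1/CD90+. The lines overlapped, since HuCCT1/CD90- replicate 1 lay below all HuCCT1/CD90+ libraries and the other two above them. The log2 fold change between means of 90.0 ± 29.5 and 69.3 ± 2.17 RPM (SD, n = 3 each) was -0.31 (SE 0.29, 95% interval -1.08 to 0.45, adjusted p = 0.572 from limma). Without HuCCT1/CD90- replicate 1 it was -0.61 with an adjusted p of 0.0232, which passed both thresholds, and without HuCCT1/CD90- replicate 2 it was -0.12.

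PLAUR (ENSG00000011422), the gene of uPAR, lies on the minus strand at chr19:43646095-43670547. Its level was 74.9, 133.0 and 95.2 RPM in HuCCT1/CD90- replicates 1, 2 and 3, and 142.3, 143.7 and 127.5 RPM in HuCCT1/CD90+. HuCCT1/CD90- replicate 2 lay within the range of HuCCT1/CD90+, and the other two libraries below it. The means were 101.0 ± 29.5 and 137.8 ± 8.96 RPM (SD, n = 3 each), and their log2 fold change was 0.48 (SE 0.23, 95% interval -0.14 to 1.10, adjusted p = 0.258 from limma). With single libraries left out, PLAUR did not pass both thresholds in any fit, and its log2 fold change ran from 0.29 without HuCCT1/CD90- replicate 1 to 0.70 without HuCCT1/CD90- replicate 2. In edgeR after filterByExpr the adjusted p was 0.0409 and in DESeq2 0.0413, again with a fold under 1.5.

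Within HuCCT1/CD90- the libraries ordered the genes in different ways. Replicate 1 had the highest PLAU and the lowest PLAT, PLAUR, SERPINE2 and SERPINB2 of its line, and replicate 2 the lowest PLAU and the highest PLAT, PLAUR and SERPINB2. Where the mean level was 10 RPM or more, replicate 1 of HuCCT1/CD90- also had the widest deviations from its line (SD 0.339 on the log2 scale, beside 0.215 to 0.301 in the other 5 libraries). Log2 ratios were taken in each library as the difference of log2(RPM + 1) of the genes. The log2 ratio of PLAU to PLAT was 2.33, 0.75 and 1.21 in HuCCT1/CD90- and 2.27, 2.20 and 2.21 in HuCCT1/CD90+. The difference of 0.80 had an exact two-sided permutation p of 0.4 (adjusted over 3 ratios 0.6), where 3 libraries against 3 cannot go below 0.1. The log2 ratio of PLAU to PLAUR, enzyme to receptor, differed by 0.0023 (exact permutation p = 1). The log2 ratio of SERPINE2 to SERPINB2 went from 4.50 to 4.89 in HuCCT1/CD90- to -2.67 to -2.29 in HuCCT1/CD90+, a difference of -7.23 at the smallest p possible (exact permutation p = 0.1, adjusted 0.3). The size of this difference depended on the offset, with -8.417 at 0.1 RPM and -5.075 at 5 RPM. These permutations leave the pairing by replicate number out of account. With exact sign flips of the 3 same-numbered pairs, an alternative added after the data were seen, the SERPINE2 to SERPINB2 ratio was lower in 3 of 3 pairs with an exact p of 0.25, the smallest that 3 pairs allow, and the ratios of PLAU to PLAT and to PLAUR gave 0.5 and 1.

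**Figure D2:**
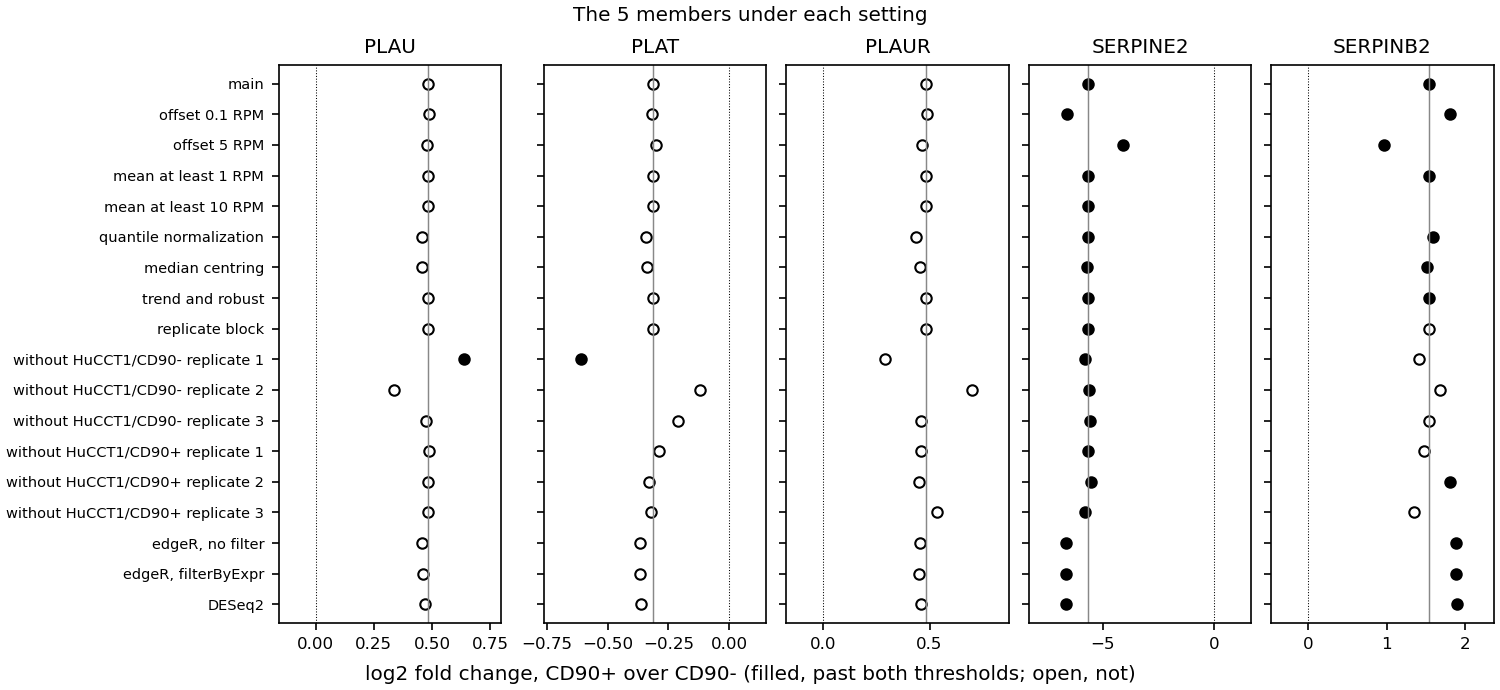
Log2 fold change of HuCCT1/CD90+ over HuCCT1/CD90- (horizontal axis, a scale of its own per gene) for the 5 genes under each processing setting (vertical axis), with filled points past both thresholds, open points not, a grey line at the reported value and a dotted line at 0. SERPINE2 is filled in every setting shown, SERPINB2 has no point where genes needed a mean of 10 RPM, and PLAU and PLAT are filled only without HuCCT1/CD90- replicate 1.

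The genes most like each member were found by the root mean square difference of centred log2(RPM + 1) over the 6 libraries, where the mean level was 10 RPM or more. Near SERPINE2 was WNT5A (0.105), which encodes a secreted Wnt ligand, and 5 genes lay within 0.2 of it. Near SERPINB2 were PHTF2 (0.198) and MYADM (0.201). PLAU was nearest to SNORA63, TMEM97 and SPAG1 (0.0485 to 0.0665), PLAT to LOX, IGFBP1 and DECR2 (0.0442 to 0.0942), and PLAUR to CXorf40A, TRMT61A and FBXW5 (0.0673 to 0.072). For the last 3 members between 147 and 609 genes lay within 0.2, so that many genes shared such a small change. The measure follows 6 libraries in 2 lines and is a description.

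The other genes of the system were taken from 9 lists by role, 92 genes in all. Of these, 9 were called higher and 22 lower in HuCCT1/CD90+, 31 of 92 beside 15.1% of all genes, and 20 were at or under the floor in both lines. The lines did not overlap for 48 of them, beside 35.0% of all genes, and the median log2 fold change of the 92 was -0.02, beside 0 over the whole table. With the replicate block 22 of the 31 calls were kept, and 6 genes higher and 16 lower were called among the 92, beside 10.1% of all genes. Genes at the floor in both lines have changes near 0 and draw the median of a list there, so that it is also given over the genes above the floor, beside -0.01 over all genes above it. Being above the floor favours genes that differ, and those medians are descriptions. From each list the called genes with the largest changes, at most 4, are named. CTSB, CTSL, PDGFD, PSCA and LY6E fell outside that limit and were named after their values were seen.

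**Figure D3:**
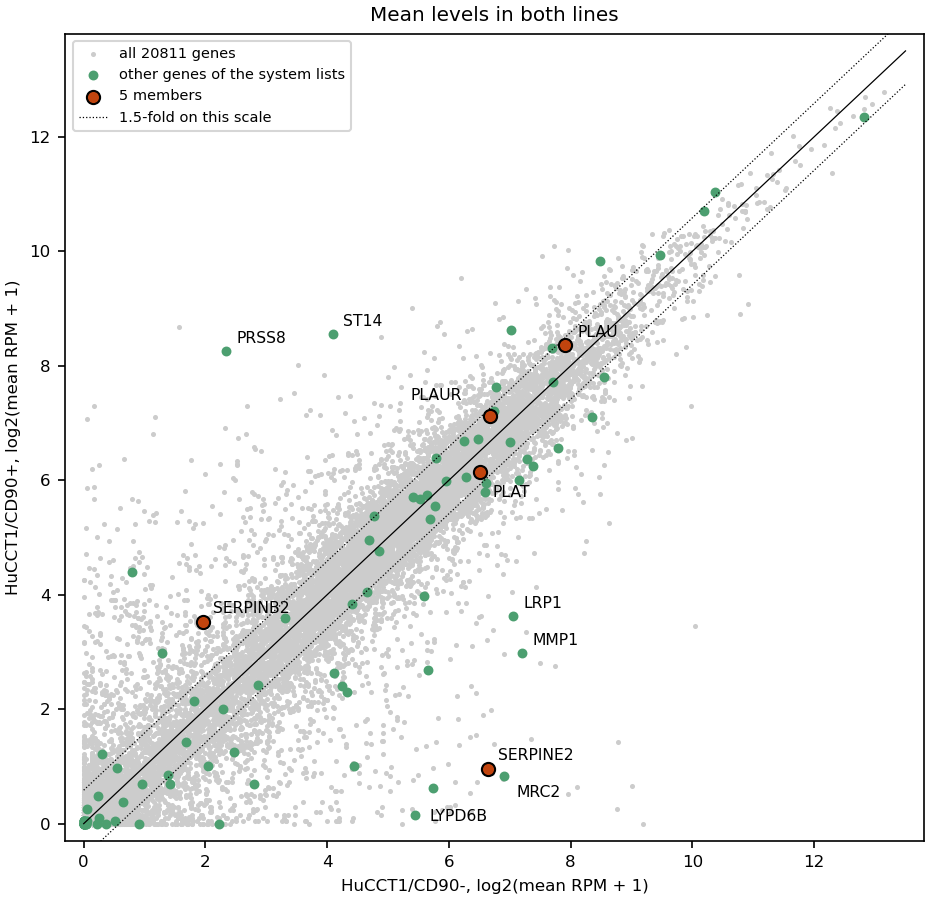
Mean levels of all 20811 genes, as log2(mean RPM + 1), in HuCCT1/CD90- (horizontal axis) and HuCCT1/CD90+ (vertical axis), with the 5 genes in red, the other system genes in green, a line of equal levels and dotted lines at 1.5-fold. SERPINE2 lies beside MRC2 far below the line, ST14 and PRSS8 far above it, and PLAU, PLAT and PLAUR within the dotted lines.

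Among the other inhibitors of plasminogen activators or plasmin, 1 of 6 was called higher, a share close to the 15.1% of all genes called, none lower, and 3 were at the floor in both lines (median log2 fold change of the list 0.02, and -0.67 over the 3 above the floor). SERPINF2, the plasmin inhibitor alpha-2-antiplasmin, rose from 1.44 ± 0.642 to 6.89 ± 1.79 RPM (SD, n = 3 each, log2 fold change 1.70, adjusted p = 0.021 from limma). It had an adjusted p of 0.117 with the replicate block, under which 0 genes of the list were called, and of 0.0728 to 0.0810 without replicate 2 or 3 of either line. The remaining genes above the floor, named after their values were seen, were not called in limma. SERPINA5, the protein C inhibitor, was at 4.57 ± 1.56 and 1.40 ± 0.593 RPM (log2 fold change -1.21, adjusted p = 0.055) and TFPI2, a Kunitz-type inhibitor of plasmin, at 24.3 ± 1.58 and 15.6 ± 6.25 RPM (-0.67, adjusted p = 0.220, both from limma, SD and n = 3 each), without overlap of the lines for either gene. On the recovered reads SERPINA5 had adjusted p-values of 0.00097 in edgeR after filterByExpr and 0.0013 in DESeq2, and TFPI2 of 0.030 and 0.036.

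In the list of proteases that activate pro-urokinase and their inhibitors, 4 of 10 genes were called higher, 2 lower and 4 were at the floor in both lines, with a median log2 fold change of 0.03, and of 1.48 over the 6 above the floor. The share of all genes called was 15.1%. Under the replicate block 4 genes of the list were called higher and 1 lower, beside 10.1% of all genes. ST14, which encodes matriptase, a membrane serine protease able to activate pro-uPA, was read at 18.1, 17.0 and 12.9 RPM in HuCCT1/CD90- and at 368.8, 369.0 and 382.5 RPM in HuCCT1/CD90+. It was 23.3-fold higher (log2 fold change 4.47, SE 0.13, adjusted p = 0.00043 from limma). PRSS8, which encodes prostasin, a membrane-anchored protease that acts with matriptase, was read at 3.89, 5.14 and 3.10 RPM in HuCCT1/CD90- and 269.7, 325.6 and 316.1 RPM in HuCCT1/CD90+. It was 75.2-fold higher (log2 fold change 5.93, SE 0.18, adjusted p = 0.00043 from limma). The lines were widely separated for both proteases.

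The matriptase inhibitors rose as well. SPINT1 went from 129.2 ± 36.3 to 394.0 ± 65.6 RPM (1.63 on the log2 scale, adjusted p = 0.022 from limma) and SPINT2 from 357.4 ± 22.9 to 908.2 ± 117.6 RPM (1.34, adjusted p = 0.0037, SD and n = 3 throughout). The SPINT1 call was lost without HuCCT1/CD90- replicate 3 or HuCCT1/CD90+ replicate 1, 2 or 3 (adjusted p of 0.0527 to 0.0834). The lysosomal cathepsins of the list were lower: CTSL, listed in the table as CTSL1, went from 95.3 ± 7.36 to 54.3 ± 1.66 RPM (adjusted p = 0.0033) and CTSB from 219.6 ± 61.7 to 93.7 ± 8.81 RPM (adjusted p = 0.033, both from limma). CTSB had an adjusted p of 0.054 with the replicate block, and of 0.0832 to 0.112 without HuCCT1/CD90- replicate 3 or HuCCT1/CD90+ replicate 1, 2 or 3.

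Of plasminogen and its cell surface binding proteins, 1 of 6 was called higher, a share close to the 15.1% of all genes called, and none lower (median log2 fold change 0.26, and 0.52 over the 5 above the floor). PLG, the gene of plasminogen, had 0 reads in all 6 libraries, each of which allows up to 0.284 to 0.349 RPM. PLGRKT, a plasminogen receptor, rose from 26.4 ± 2.97 to 40.3 ± 2.49 RPM (SD, n = 3 each, log2 fold change 0.60, adjusted p = 0.023 from limma). This change is close to the 1.5-fold limit, its adjusted p was 0.109 with the replicate block, which left 0 genes of the list called, and it passed both thresholds only without HuCCT1/CD90- replicate 3 when single libraries were left out. Without replicate 1 of HuCCT1/CD90- its log2 fold change of 0.51 was under the limit, and without the other 4 libraries the adjusted p was 0.0641 to 0.0803. ANXA2, KRT8 and ENO1, named after their values were seen, did not overlap between the lines and were not called in limma. ANXA2 was at 1328 ± 235 and 2085 ± 277 RPM (0.66, adjusted p = 0.077), with 0.0017 in edgeR after filterByExpr and 0.00032 in DESeq2. KRT8 was higher (0.52, adjusted p = 0.039) and ENO1 lower (-0.46, adjusted p = 0.0498), both under the 1.5-fold limit.

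Of the endocytic receptors that clear activator and inhibitor complexes, 4 of 8 were called lower, none higher, and 1 was at the floor (median log2 fold change -0.68, and -1.14 over the 7 above it). This stands beside 15.1% of all genes called. Under the replicate block 3 of the receptors were called lower, beside 10.1% of all genes. MRC2, a collagen receptor known to bind uPAR with pro-uPA, was read at 104.0, 142.8 and 110.8 RPM in HuCCT1/CD90- and at 0.322, 0.815 and 1.19 RPM in HuCCT1/CD90+. It was 153.4-fold lower (log2 fold change -6.10, SE 0.24, adjusted p = 0.00069 from limma). LRP1, the receptor that takes up these complexes, was read at 75.3, 178.2 and 140.4 RPM in HuCCT1/CD90- and at 8.04, 13.9 and 12.2 RPM in HuCCT1/CD90+, 11.6-fold lower (log2 fold change -3.37, SE 0.40, adjusted p = 0.0095 from limma). The levels of both genes were separated between the lines. SORL1 and IGF2R, sorting receptors, fell by 1.16 and 1.14 on the log2 scale (adjusted p = 0.0091 and 0.0036 from limma), and SORL1 had an adjusted p of 0.059 with the replicate block.

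Among vitronectin, which binds uPAR, and the integrins reported as its partners, 1 of 9 was called higher and 3 lower, beside 15.1% of all genes called (median log2 fold change -0.09). Under the replicate block 1 was called higher and 1 lower, beside 10.1% of all genes. ITGB6, an epithelial integrin subunit, rose from 0.724 ± 0.196 to 20.2 ± 4.12 RPM (a change of 3.61 on the log2 scale, adjusted p = 0.0011 from limma, n = 3 each). ITGB3, a subunit of the classical vitronectin receptor, fell from 20.7 ± 3.93 to 1.01 ± 0.451 RPM (-3.44, adjusted p = 0.0020). VTN went from 3.13 ± 0.321 to 1.00 ± 0.345 RPM (-1.05, adjusted p = 0.014), and ITGA5, a subunit of the fibronectin receptor, from 154.0 ± 32.4 to 81.9 ± 5.13 RPM (-0.88, adjusted p = 0.033). VTN had an adjusted p of 0.086 with the block and 0.0505 to 0.0598 without HuCCT1/CD90- replicate 1 or 3 or HuCCT1/CD90+ replicate 3. ITGA5 had 0.067 with the block and 0.0983 to 0.107 without HuCCT1/CD90- replicate 3 or HuCCT1/CD90+ replicate 1, 2 or 3.

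Of the substrates of plasmin or the activators, 4 of 14 were called lower and 1 higher, beside 15.1% of all genes called, and 2 were at the floor in both lines. The median log2 fold change was -0.32. Over the 12 above the floor it was -0.41, or -0.27 with genes at the floor in 1 line set to their bound. Under the replicate block 3 substrates were called lower and 0 higher, beside 10.1% of all genes. MMP1, interstitial collagenase, was read at 98.9, 166.7 and 173.6 RPM in HuCCT1/CD90- and at 8.68, 5.59 and 6.40 RPM in HuCCT1/CD90+, 21.2-fold lower with no overlap (log2 fold change -4.20, SE 0.29, adjusted p = 0.0023 from limma). MMP13, another collagenase, fell from 5.95 ± 1.88 to 0.618 ± 0.395 RPM (-2.09, adjusted p = 0.015) and the matrix glycoprotein gene FN1 from 47.3 ± 10.5 to 14.7 ± 3.40 RPM (-1.62, adjusted p = 0.020). MMP14, a membrane-bound matrix metalloproteinase, went from 324.7 ± 94.0 to 137.4 ± 11.1 RPM (-1.20, adjusted p = 0.032). PDGFD, a latent growth factor, went from 0.229 ± 0.222 to 1.32 ± 0.371 RPM (0.92, adjusted p = 0.036, SD and n = 3 throughout).

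The calls of 4 of these substrates depended on single libraries. MMP13 had adjusted p-values of 0.0515 to 0.0635 without replicate 1 or 3 of HuCCT1/CD90- or 2 or 3 of HuCCT1/CD90+, and FN1 of 0.0582 to 0.0759 without replicate 2 or 3 of either line. MMP14 had 0.078 with the replicate block and 0.0898 to 0.111 without HuCCT1/CD90- replicate 3 or any 1 HuCCT1/CD90+ library. PDGFD had 0.148 with the block and 0.0676 to 0.110 without any 1 library other than HuCCT1/CD90- replicate 3.

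In the Ly6/uPAR domain family, whose members share the fold of uPAR, 5 of 14 were called lower and 1 higher, with 5 at the floor in both lines (median log2 fold change -0.18, and -1.50 over the 9 above the floor). The share of all genes called was 15.1%. Under the replicate block the family kept 5 genes called lower and 1 higher, beside 10.1% of all genes. LYPD6B was read at 42.6, 44.0 and 40.6 RPM in HuCCT1/CD90- and at 0, 0.116 and 0.217 RPM in HuCCT1/CD90+, at least 121.3-fold lower (adjusted p = 0.00017 from limma). LYPD1 went from 52.4 ± 7.19 to 0.542 ± 0.369 RPM (-5.14 on the log2 scale, adjusted p = 0.00089), LYPD6 from 49.2 ± 6.71 to 5.41 ± 0.563 RPM (-2.96, adjusted p = 0.00081) and LYPD3 from 17.9 ± 5.42 to 4.27 ± 1.33 RPM (-1.83, adjusted p = 0.028, SD and n = 3 throughout). LYPD3 had an adjusted p of 0.0653 to 0.0934 without any 1 library other than HuCCT1/CD90- replicate 1. PSCA was 16.4 ± 0.844 and 5.20 ± 1.23 RPM (-1.50, adjusted p = 0.0070) and LY6E, the gene called higher, 107.9 ± 13.7 and 198.0 ± 7.72 RPM (0.88, adjusted p = 0.0089). PLAUR itself was not called.

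Of the other clade B serpins, the family of SERPINB2, 2 of 12 were called lower and none higher, a share close to the 15.1% of all genes called, with 4 at the floor in both lines (median log2 fold change -0.12, and -0.61 over the 8 above the floor). SERPINB6, an intracellular protease inhibitor, went from 373.3 ± 40.4 to 221.7 ± 13.9 RPM (-0.75, adjusted p = 0.012) and SERPINB1, an inhibitor of neutrophil proteases, from 96.5 ± 12.9 to 61.1 ± 3.60 RPM (-0.64, adjusted p = 0.025 from limma, SD and n = 3 throughout). SERPINB6 had an adjusted p of 0.0513 without HuCCT1/CD90- replicate 3. SERPINB1 had one of 0.117 with the replicate block, a log2 fold change of -0.54 without HuCCT1/CD90- replicate 1, under the limit, and adjusted p-values of 0.0729 to 0.0824 without HuCCT1/CD90- replicate 2 or any 1 HuCCT1/CD90+ library. SERPINB5 (maspin), named after its values were seen, was not called in limma at 54.3 ± 11.2 and 82.5 ± 5.52 RPM (0.62, adjusted p = 0.091), without overlap of the lines, and had an adjusted p of 0.0069 in edgeR after filterByExpr and 0.0030 in DESeq2. SERPINB3 and SERPINB4, named in the same way, were lower without overlap and not called in limma. SERPINB3 went from 3.69 ± 2.43 to 0 RPM (at least 10.6-fold lower, -2.05, adjusted p = 0.064). SERPINB4 went from 0.888 ± 0.639 to 0 RPM (at least 2.54-fold lower, -0.86, adjusted p = 0.095). In DESeq2 their adjusted p-values were 1.5e-07 and 0.0018, and edgeR after filterByExpr left both genes out.

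AP-1 and ETS factors are known to drive transcription of several plasminogen activator genes. Of 13 such factors, 2 were called lower and none higher, beside 15.1% of all genes called (median log2 fold change 0.24). All 13 were above the floor in a line, as were 14098 of all genes, 3138 of them called. ETV1, an ETS factor, was read at 18.8, 18.7 and 19.8 RPM in HuCCT1/CD90- and 4.50, 4.08 and 3.15 RPM in HuCCT1/CD90+ (log2 fold change -2.04, SE 0.12, adjusted p = 0.0015 from limma). JUN, an AP-1 subunit, went from 1.67 ± 0.359 to 0.623 ± 0.148 RPM (SD, n = 3 each, -0.72, adjusted p = 0.028 from limma). JUN had adjusted p-values of 0.0697 to 0.0973 without any 1 library other than HuCCT1/CD90- replicate 2, and 0.078 in DESeq2.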

How the data were processed

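Total RNA of 6 HuCCT1 libraries, 3 per line, was read with the Ion AmpliSeq Transcriptome panel. The ampliSeqRNA plugin gave the authors raw reads per amplicon, which they deposited as RPM, scaled to each library's total, with no filter on low values. The labels name hg19, and amplicon positions are not given in the sources used here. Whole reads were recovered for 100% of values, which lay within 0.00051 RPM plus 1e-06 of the value from a whole multiple of 1 read. Gene positions were taken from GENCODE 29 by symbol (89.4% of genes matched), and promoters from RefSeq for PLAU, PLAUR, SERPINE2 and SERPINB2; that of PLAT was not analysed here.

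The lines were compared with limma 3.58.1 in R 4.3.3 (lmFit, eBayes, two-sided) on log2(RPM + 1) over all 20811 genes, a scale that understates changes of low genes. edgeR 4.0.16 and DESeq2 1.42.0 were run on the recovered reads, and the scripts were tested on simulated data. A fold against a line at the floor was computed from 3 reads per library. Floors cover counting error only, since PCR reads carried no molecular identifiers. No source says that the libraries came from separate cultures, so p-values measure the spread between libraries, which may be technical. Libraries of the same number deviated together (r = 0.209, 0.320 and 0.178 for numbers 1, 2 and 3, beside -0.294 to 0.0706 for other pairs), so the numbers were taken to pair them, from this check alone, and a replicate block was tried. Other alternatives were offsets of 0.1 and 5 RPM, filters at a mean of 1 or 10 RPM, quantile normalization, median centring, trend and robust eBayes, a minimum fold of 2, and each library left out in turn. Named genes were the 5 members, THY1, at most 4 called genes per list with the largest changes, and the 3 genes most like each member. Some genes that this rule names are not reported here, and 1 of them was left out of the lists and their counts. The members and lists were chosen with earlier results of these data known.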

Additional observations from a re-analysis of the deposited data

How the results depend on the processing

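The direction of PLAU, PLAT, PLAUR, SERPINE2, SERPINB2 and THY1 held under every alternative run for them. SERPINE2 and THY1 passed both thresholds in all of theirs. By offset or tool the log2 fold change of SERPINE2 ran from -6.68 (DESeq2) to -4.12 (offset of 5 RPM) and that of SERPINB2 from 0.96 (offset of 5 RPM) to 1.89 (DESeq2). With the replicate block, SERPINB2 kept its log2 fold change of 1.54 with an adjusted p of 0.129, which left 1 of the 5 members called; no other call of the members changed under the block. With only genes of a mean of at least 10 RPM, 1 member was called as well, because SERPINB2 is below that mean. The adjusted p from limma depended on such filters, since the unfiltered fit held 3805 genes without reads. With a mean of at least 1 RPM it was 0.00030 for SERPINB2 and 0.044 for PLAU, and PLAU had 0.033 at 10 RPM. The fold of PLAU stayed under 1.5 with both filters. Median centring gave SERPINB2 an adjusted p of 0.0092. Leaving out each library in turn gave log2 fold changes of 1.35 to 1.81 for SERPINB2, 0.34 to 0.64 for PLAU, 0.29 to 0.70 for PLAUR and -0.61 to -0.12 for PLAT, with 1 to 3 members, 18 to 27 other system genes and 1868 to 2414 of all genes called. These fits hold fewer libraries. The log2 ratio of PLAU to PLAUR, 0.0023, was -0.00010 at an offset of 0.1 RPM and ran from -0.36 to 0.35 with single libraries left out, so it has no stable sign. Of the other system genes called, JUN and PLGRKT were lost under quantile normalization, PLGRKT under median centring, JUN, PDGFD, PLGRKT and VTN at an offset of 5 RPM and PDGFD at 0.1 RPM; none changed sign. A minimum fold of 2 left 1874 of all genes, beside 3138. edgeR after filterByExpr called 4200 of the 12070 genes it kept and DESeq2 4236 of the 17006 genes with any read. With 3 libraries a line, an exact test of a ratio cannot go below 0.1.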
